A study of Mus musculus with 6 samples.

Results

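The 9 genes described here are phospholipase A2 genes that lie outside group IV: Pla2g6, Pnpla8, Pla2g3, Pla2g12a, Pla2g15, Pla2g7, Pafah1b2, Pafah1b3 and Pafah1b1. They were chosen by name, as the relatives of Pla2g4e named for the platelet-activating factor, lysosomal, secreted and calcium-independent families, and they are 9 of the 56923 genes in the count tables. RNA was sequenced from mouse prefrontal cortex in 3 samples of the genotype Pla2g4e KO and 3 WT samples, and the question asked of the 9 genes was at what level cortex holds them and whether any was higher or lower where Pla2g4e is knocked out. The KO is constitutive. Per the methods of the study, the Pla2g4e tm2a allele carries a gene trap that is predicted to splice the transcript into a LacZ reporter, on the background C57BL/6N-A tm1Brd, so every cell type carries the allele throughout life. No agent was given to either group in the labels, which state neither the age nor the sex of the mice, nor whether each sample is a separate animal. The p-values below therefore measure the spread between these samples, which may be technical in part. Each group mixed libraries with Xist and libraries with Y-linked RNA (below), so the samples of a group were not all from a single animal.

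Phospholipases A2 cut the fatty acid at the middle carbon of a glycerophospholipid and release a free fatty acid, such as arachidonic or docosahexaenoic acid, and a lysophospholipid. The families differ in how they do it. Group IV enzymes, to which Pla2g4e belongs, are cytosolic and use a serine, and PLA2G4E is above all a calcium-dependent N-acyltransferase that makes N-acylphosphatidylethanolamines. Group VI enzymes (Pla2g6, Pnpla8) need no calcium and remodel membranes, those of mitochondria among them. Secreted enzymes (Pla2g3, Pla2g12a) need calcium and use a histidine. The lysosomal enzyme (Pla2g15) works in acid, and the acetylhydrolases (Pla2g7, Pafah1b2, Pafah1b3) remove the short acetyl group that makes platelet-activating factor active. Pafah1b1, or LIS1, is the noncatalytic subunit that holds the Pafah1b2 and Pafah1b3 dimers and is better known as the regulator of dynein that neurons need in order to migrate.

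The catalytic centres of the 8 enzymes are shown because they sort the genes into the chemical classes used below. Each line holds a piece of the coding sequence from GENCODE M21 on GRCm38, sense strand, with the codons of the active-site motif in capitals and 4 codons on either side. Positions are counted from the first base of the start codon.
Pla2g6, bases 1540 to 1578: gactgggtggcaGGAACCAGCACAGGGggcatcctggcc
Pnpla8, bases 1411 to 1449: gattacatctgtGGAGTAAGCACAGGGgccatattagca
Pla2g15, bases 574 to 612: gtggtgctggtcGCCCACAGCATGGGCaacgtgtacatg
Pla2g7, bases 796 to 834: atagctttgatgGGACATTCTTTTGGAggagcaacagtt
Pafah1b2, bases 124 to 156: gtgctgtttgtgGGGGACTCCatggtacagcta
Pafah1b3, bases 124 to 156: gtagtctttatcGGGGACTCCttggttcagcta
Pla2g3, bases 514 to 555: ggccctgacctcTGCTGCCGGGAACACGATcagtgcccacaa
Pla2g12a, bases 313 to 354: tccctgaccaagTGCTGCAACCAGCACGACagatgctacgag
In Pla2g6, Pnpla8 and Pla2g7 the capitals encode Gly-X-Ser-X-Gly, the elbow of a serine lipase, and in Pla2g15 they encode Ala-X-Ser-X-Gly. Pafah1b2 and Pafah1b3 share Gly-Asp-Ser at the same bases of their coding sequences, which are 65.5% identical over 684 aligned bases. Pla2g3 and Pla2g12a carry Cys-Cys-X-X-His-Asp, with the histidine of the secreted enzymes. The longest exact run shared by transcripts of any 2 of the 9 genes was 24 bases, so read pairs of these genes were separable from each other.

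The libraries held 11792463 to 14594230 counted fragments (read pairs), and values are given as CPM, the fragments of a gene for every 1000000 counted, after TMM scaling, which corrects for differences in composition between libraries. In limma-voom without covariates, 0 of 19084 genes tested passed an adjusted p of 0.05 (0%), and 1492 (7.82%) had an unadjusted p under 0.05. The adjusted count was 0 in edgeR's quasi-likelihood test, 1 in DESeq2, 22 with a covariate for Y-linked expression and 3 within the libraries that express Y-linked genes. Pla2g4e itself, the check of the labels, stood at 5.95, 8.12 and 7.97 CPM in KO replicates 1 to 3 and at 7.84, 11.3 and 13.2 CPM in WT replicates 1 to 3. Its log2 fold change was -0.55 (SE 0.21, unadjusted p = 0.0205, adjusted p = 0.635 in limma-voom), so fragments over its exons were still counted in KO and the groups overlapped. The study reports no Pla2g4e protein in KO hippocampus by Western blot or immunostaining, which is another measure and tissue than RNA over exons in cortex. The fold change of Pla2g4e, as log2, was -0.60 (unadjusted p = 0.00299) within the 4 libraries with Y-linked RNA. In limma-voom its unadjusted p-value passed 0.05 no longer when KO replicate 1 (-0.39, unadjusted p = 0.0923), WT replicate 2 (-0.50, unadjusted p = 0.0557) or WT replicate 3 (-0.39, unadjusted p = 0.0943) was left out. KO replicate 1 and WT replicate 1 expressed Xist (1387 and 969 CPM) and almost no Y-linked RNA, and the other 4 libraries the reverse. KO replicate 1 also stood apart in cell markers. Its summed excitatory neuron markers, at 1566 CPM, were below the 1891 to 2183 CPM of the other 5 libraries, and its inhibitory neuron markers, at 1025 CPM, were above their 625 to 840 CPM. Gad1, at 581 CPM, made up most of that sum, while Sst (80.4 CPM) and Pvalb (20.1 CPM) were at their lowest in the same library. Those 2 interneuron markers were lower in each KO library than in each WT library, with log2 fold changes of -0.50 (unadjusted p = 0.000114) and -0.23 (unadjusted p = 0.0357), both with adjusted p = 0.635 in limma-voom. The list as a whole was split, with 3 markers below 0 and 3 above 0 (Gad1 0.33, Gad2 0.10 and Slc32a1 0.05) and a median of -0.05. Results are therefore also given without KO replicate 1 and within the 4 libraries with Y-linked RNA. In bulk tissue, fewer cells of a type and less RNA per cell cannot be told apart.

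All 9 genes were expressed and passed the filter of at least 6 fragments in at least 1 library. Their mean levels per exon length ran from 1.16 to 58.5 FPKM, and none passed the adjusted threshold between KO and WT. Of the 9, 7 had a log2 fold change below 0 and 2 above 0. The median was -0.09, beside 0.01 over all genes tested, of which 48.1% were below 0. Adjusted p-values of the 9 genes ran from 0.635 to 0.938. By unadjusted p, 1 of the 9 passed 0.05, Pla2g15, which was lower in KO, beside 7.82% of all genes in either direction and 3.44% in that direction. Without KO replicate 1 that count of 1 was 0, beside 830 of 18701 genes tested with unadjusted p under 0.05. It was also 0 within the libraries with Y-linked RNA, beside 696 of 18476. With Pla2g3 it was 2 with library totals alone (beside 1489 of 19084) or without WT replicate 2 (782 of 18936). With Pla2g7 it was 2 under the Y-linked covariate, beside 2015 of 19084. Without WT replicate 3 it was 3, with Pafah1b1 and Pafah1b2, beside 2239 of 18931. In 3 of the 9 genes the KO libraries were separate from the WT libraries, beside 13% of all genes. These were Pla2g15 and Pafah1b2, lower in KO (6.29% of all genes), and Pla2g3, higher in KO (6.72% of all genes).

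**Figure D1:**
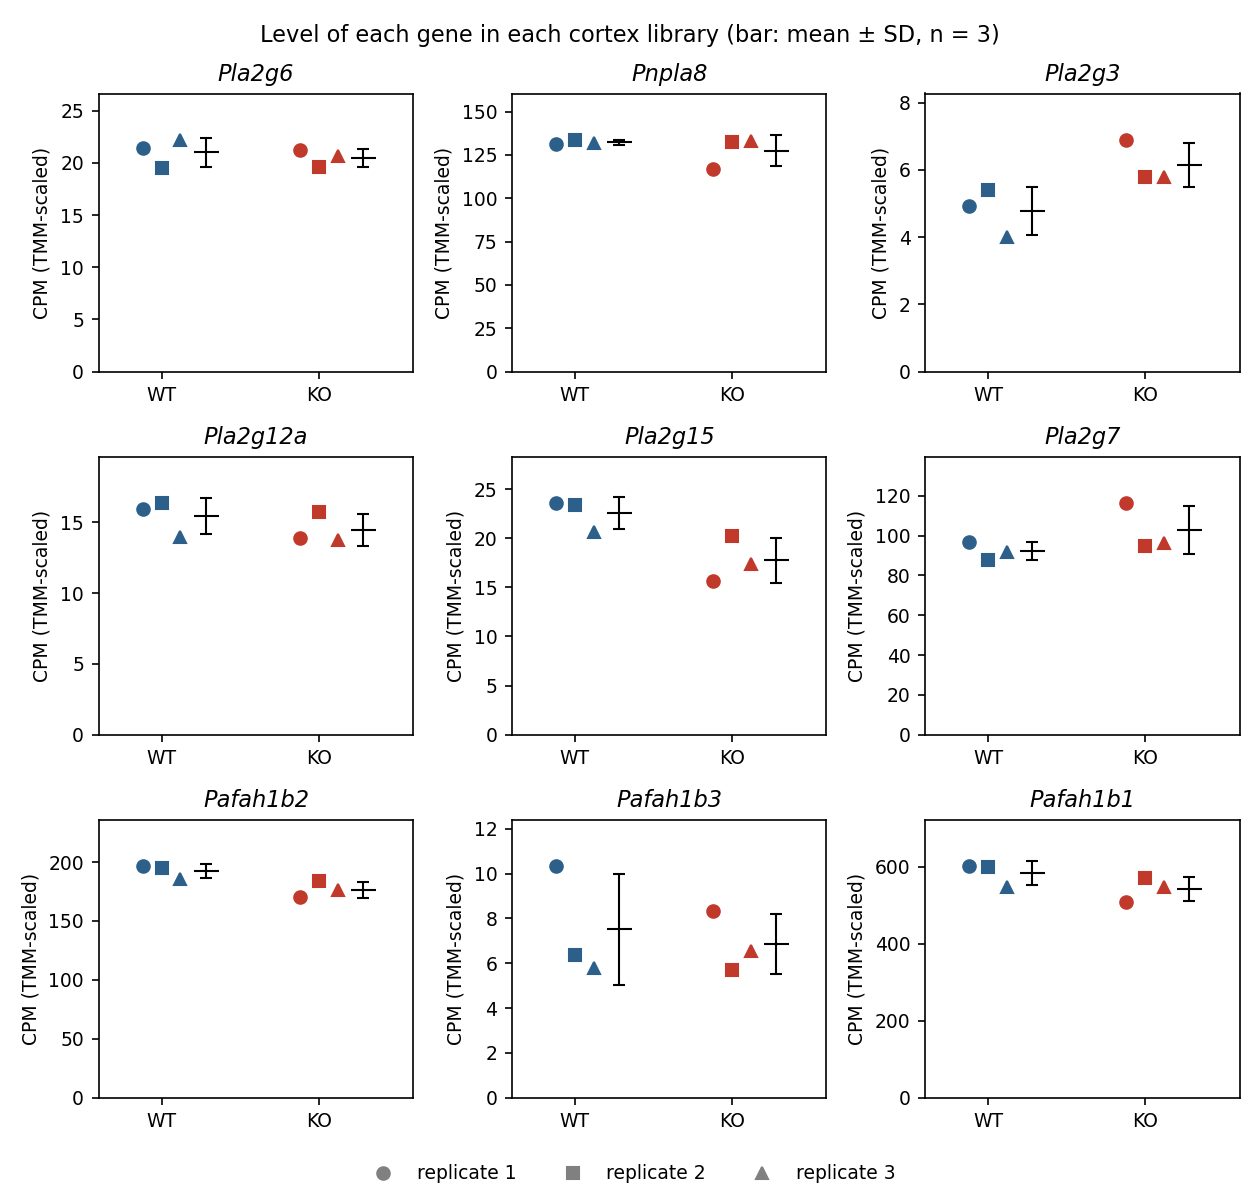
CPM of each of the 9 genes (vertical axes, TMM-scaled, from 0) in the WT and KO libraries, with 1 symbol per replicate and a bar for mean ± SD (n = 3). KO and WT are separate in Pla2g15, Pafah1b2 and Pla2g3 and overlap in the other 6 genes.

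The order of the 9 genes in cortex was compared per exon length, as CPM per exon kilobase (FPKM), because genes with longer exons collect more fragments. Pafah1b1 was highest, at a mean of 58.5 FPKM over the 6 libraries (SD 3.68), above 97.0% of the genes tested, and it made up 41.0% of the summed level of the 9 genes. Pla2g7, the secreted acetylhydrolase, came next at 33.5 FPKM (SD 3.42). Pafah1b2 followed at 22.3 FPKM (SD 1.26). Per length, genes of platelet-activating factor acetylhydrolases thus held the first 3 places, with Pafah1b3 as the exception further down. Pnpla8, at 9.16 FPKM (SD 0.448), was the highest of the enzymes with long-chain phospholipase A2 activity. Pla2g15 stood at 6.68 FPKM (SD 1.05). Pla2g12a (4.06 FPKM, SD 0.325), Pla2g6 (3.82, SD 0.197) and Pafah1b3 (3.41, SD 0.860) formed a group whose neighbours overlapped over the 6 libraries, and their order is not set by these data. Pla2g3 was lowest at 1.16 FPKM (SD 0.206), beside 1.302 FPKM (SD 0.382) for Pla2g4e itself over all 6 libraries. By group, Pla2g3 had means of 1.02 FPKM in WT and 1.31 FPKM in KO. Pla2g4e had 1.55 FPKM in WT and 1.06 FPKM in KO, so Pla2g4e was the higher of the pair in WT and the lower in KO. The remaining neighbours in the order had separate ranges, and the order was the same from the KO libraries or the WT libraries alone. The exon length takes in every annotated exon of a gene (14174 bases for Pnpla8, 2905 for Pla2g7), not the transcripts in use. The order between genes therefore also depends on the annotation. In CPM, Pnpla8 (means of 127 in KO and 132 in WT) was above Pla2g7 (103 in KO and 92.0 in WT).

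**Figure D2:**
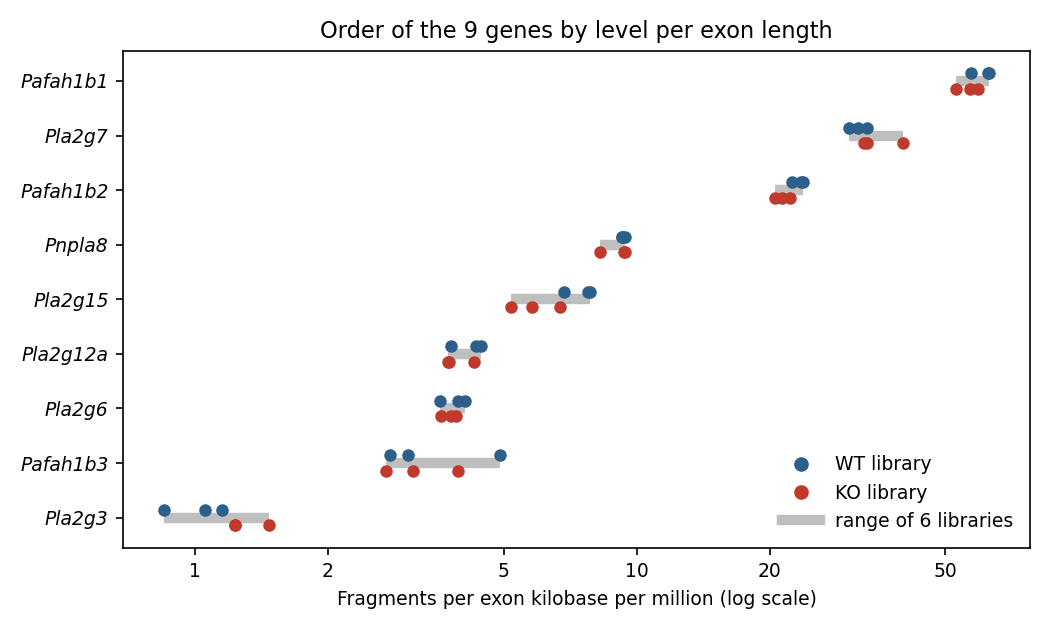
FPKM of the 9 genes in each library (horizontal axis, log scale), ordered by mean, with WT above KO in each row and a grey bar for the range of the 6 libraries. The ranges overlap between neighbours only for Pla2g12a with Pla2g6 and for Pla2g6 with Pafah1b3.

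The summed level of the 9 genes was 140, 142 and 138 FPKM in KO replicates 1 to 3 and 151, 145 and 139 FPKM in WT replicates 1 to 3. These values overlapped, with means of 140 ± 1.86 (SD, n = 3) and 145 ± 6.11 FPKM (SD, n = 3). Without Pafah1b1, which has no catalytic activity, the sum was 83.8 ± 2.97 FPKM in KO and 84.4 ± 3.48 FPKM in WT (SD, n = 3). The mean summed transcript level of the 8 enzymes was therefore no higher in KO than in WT, and the means differed by less than these SDs. This sum rests mostly on the acetylhydrolases Pla2g7 and Pafah1b2, which held 23.5% and 15.6% of the summed level of all 9 genes.

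Among the calcium-independent enzymes, neither Pla2g6 nor Pnpla8 had a higher mean in KO. Pla2g6 (ENSMUSG00000042632.18; chr15:79170428-79212590, minus strand, GRCm39) encodes the group VIA enzyme, a remodeler of membrane phospholipids whose loss causes infantile neuroaxonal dystrophy. Its level was 21.2, 19.6 and 20.6 CPM in KO replicates 1 to 3 and 21.4, 19.5 and 22.2 CPM in WT replicates 1 to 3. The KO values lay inside the WT range. Its log2 fold change was -0.04 (SE 0.10, 95% confidence interval -0.25 to 0.18, adjusted p = 0.938 in limma-voom), an interval from 0.842-fold to 1.13-fold. It was -0.06 without KO replicate 1 and -0.05 within the 4 libraries with Y-linked RNA. The sign turned in 1 of 17 alternatives, to 0.0023 without WT replicate 3.

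Pnpla8 (ENSMUSG00000036257.16; chr12:44268153-44369315, plus strand) encodes the group VIB enzyme of mitochondria and peroxisomes, which takes part in the turnover of cardiolipin. It stood at 117, 132 and 133 CPM in KO and at 131, 134 and 132 CPM in WT. The libraries other than KO replicate 1 lay between 131 and 134 CPM, with a coefficient of variation of 0.992% in WT, the smallest of the 9 genes. KO replicate 1 alone was low. Its log2 fold change was -0.06 (SE 0.07, interval -0.21 to 0.10, adjusted p = 0.836 in limma-voom) with all libraries. It was 0.0065 without KO replicate 1 and 0.00093 within the 4 libraries with Y-linked RNA, so that KO replicate 1 sets the sign. The ratio of Pnpla8 to Pla2g6, per length, was 2.39 ± 0.248 in KO and 2.42 ± 0.188 in WT (SD, n = 3). The transcript of the mitochondrial enzyme was the more abundant of the pair in all 6 libraries.

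Pla2g3 (ENSMUSG00000034579.18; chr11:3438284-3449350, plus strand) encodes the group III secreted enzyme, related to the phospholipase of bee venom. It had 6.89, 5.78 and 5.78 CPM in KO against 4.94, 5.40 and 4.003 CPM in WT, from 51 to 102 fragments a library. Each KO library was above each WT library. The log2 fold change was 0.38 (SE 0.18, interval -0.02 to 0.78, unadjusted p = 0.0602, adjusted p = 0.637 in limma-voom). It was 0.29 (SE 0.21) without KO replicate 1 and 0.32 (SE 0.24) within the 4 libraries with Y-linked RNA. Pla2g3 was thus the highest of the 9 genes by fold, 1.299-fold, at the lowest count, and 8.54% of its exon bases lie opposite exons of Inpp5j, which a strand-specific count keeps apart.

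Pla2g12a (ENSMUSG00000027999.16; chr3:129672255-129689474, plus strand) encodes the group XIIA secreted enzyme. Its level was 13.9, 15.7 and 13.7 CPM in KO against 15.9, 16.4 and 13.97 CPM in WT. The groups overlapped through KO replicate 2 and WT replicate 3. The log2 fold change was -0.10 (SE 0.12, interval -0.35 to 0.16, adjusted p = 0.828 in limma-voom), and it stayed below 0 in all 17 alternatives, between -0.17 (without WT replicate 3) and -0.04 (within the 4 libraries with Y-linked RNA).

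Pla2g15 was the member with the lowest p-value. The gene (ENSMUSG00000031903.8; chr8:106877031-106891347, plus strand) encodes the lysosomal phospholipase A2, which is also a transacylase and is known from the phospholipid storage that builds up in macrophages without it. It stood at 15.6, 20.2 and 17.4 CPM in KO and at 23.6, 23.3 and 20.6 CPM in WT, from 223 to 301 fragments a library. The highest KO library lay just under the lowest WT library. The means were 17.7 ± 2.30 and 22.5 ± 1.63 CPM (SD, n = 3), a 0.780-fold level in KO with an interval of 0.655 to 0.928. On the log2 scale the difference was -0.36 (SE 0.11, interval -0.61 to -0.11, unadjusted p = 0.00876, adjusted p = 0.635 in limma-voom). It did not pass the adjusted threshold. It was below 0 in all 17 alternatives, between -0.46 and -0.23, and its unadjusted p was under 0.05 in 15 of them. The exceptions were the fit without KO replicate 1 (-0.26, unadjusted p = 0.0506) and that within the 4 libraries with Y-linked RNA (-0.23, unadjusted p = 0.103), both limma-voom.

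Pla2g7 (ENSMUSG00000023913.18; chr17:43878989-43923092, plus strand) encodes the secreted platelet-activating factor acetylhydrolase, also called lipoprotein-associated phospholipase A2. It had 116, 94.98 and 96.5 CPM in KO against 96.6, 87.7 and 91.9 CPM in WT. The groups overlapped, and KO replicate 1 was far above the other 5 libraries. The log2 fold change of 0.15 (SE 0.08, interval -0.03 to 0.34, adjusted p = 0.653 in limma-voom) became 0.06 (SE 0.08) without that library and 0.09 (SE 0.08) within the 4 libraries with Y-linked RNA. Of its exon bases, 10.98% lie opposite exons of 1700071M16Rik on the other strand.

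The intracellular acetylhydrolase is an assembly of Pafah1b2 and Pafah1b3, the catalytic α2 and α1 subunits, with Pafah1b1. All 3 subunits had a log2 fold change below 0. Pafah1b2 (ENSMUSG00000003131.8; chr9:45874157-45923988, minus strand) stood at 170, 184 and 176 CPM in KO and at 197, 195 and 186 CPM in WT. The groups did not overlap. The log2 fold change was -0.13 (SE 0.06, interval -0.26 to 0.01, unadjusted p = 0.0656, adjusted p = 0.637 in limma-voom), a 0.916-fold level. It was -0.10 (SE 0.07) without KO replicate 1 and -0.08 (SE 0.08) within the 4 libraries with Y-linked RNA.

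Pafah1b3 (ENSMUSG00000005447.13; chr7:24994474-24997411, minus strand), the subunit that is abundant in the embryonic brain, had 8.31, 5.70 and 6.56 CPM in KO against 10.3, 6.38 and 5.81 CPM in WT, from 68 to 132 fragments a library. Its coefficients of variation, 19.5% in KO and 32.9% in WT, were the largest of the 9 genes. Both libraries with Xist were above the other 4, as they were for 8.26% of all genes tested. The log2 fold change was -0.09 (SE 0.22, interval -0.58 to 0.40, adjusted p = 0.932 in limma-voom). It was -0.25 without KO replicate 1, -0.25 without WT replicate 3 and -0.18 without WT replicate 2. The value turned to 0.17 without WT replicate 1 and to 0.03 without KO replicate 2. Within the 4 libraries with Y-linked RNA it was 0.0099, so these data do not set its sign. Pla2g7 shared the order by Xist, with 96.6 and 116 CPM in the libraries with Xist and 87.7 to 96.5 CPM in the other 4. In Pnpla8 the order was the opposite, as for 8.27% of all genes, with 117 and 131 CPM against 132 to 134 CPM.

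Pafah1b1 (ENSMUSG00000020745.16; chr11:74564775-74615496, minus strand) encodes LIS1, of which the loss of a single copy causes lissencephaly. It had 509, 571 and 547 CPM in KO against 602, 599 and 548 CPM in WT, from 6819 to 7682 fragments a library. The lowest library was KO replicate 1, and KO replicate 2 was above WT replicate 3. The log2 fold change was -0.11 (SE 0.07, interval -0.25 to 0.04, adjusted p = 0.681 in limma-voom). It was -0.06 (SE 0.07) without KO replicate 1 and -0.04 (SE 0.07) within the 4 libraries with Y-linked RNA, and -0.15 without WT replicate 3 (unadjusted p = 0.0469 in limma-voom). Its processed pseudogenes Pafah1b1-ps1 and Pafah1b1-ps2 share runs of up to 75 and 77 bases with it and had 1 fragment in all and none, respectively. Fragments that map to both the gene and a pseudogene were not counted.

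The transcript levels of the subunits of the complex were compared within each library. Pafah1b2 exceeded Pafah1b3 per length by 5.22, 8.21 and 6.84 times in KO and by 4.85, 7.79 and 8.16 times in WT. The lowest ratios in each group were those of the libraries with Xist. Pafah1b1 exceeded both catalytic subunits together by 2.29 ± 0.118 times in KO and 2.26 ± 0.0794 times in WT (SD, n = 3), and the means differed by less than these SDs.

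**Figure D3:**
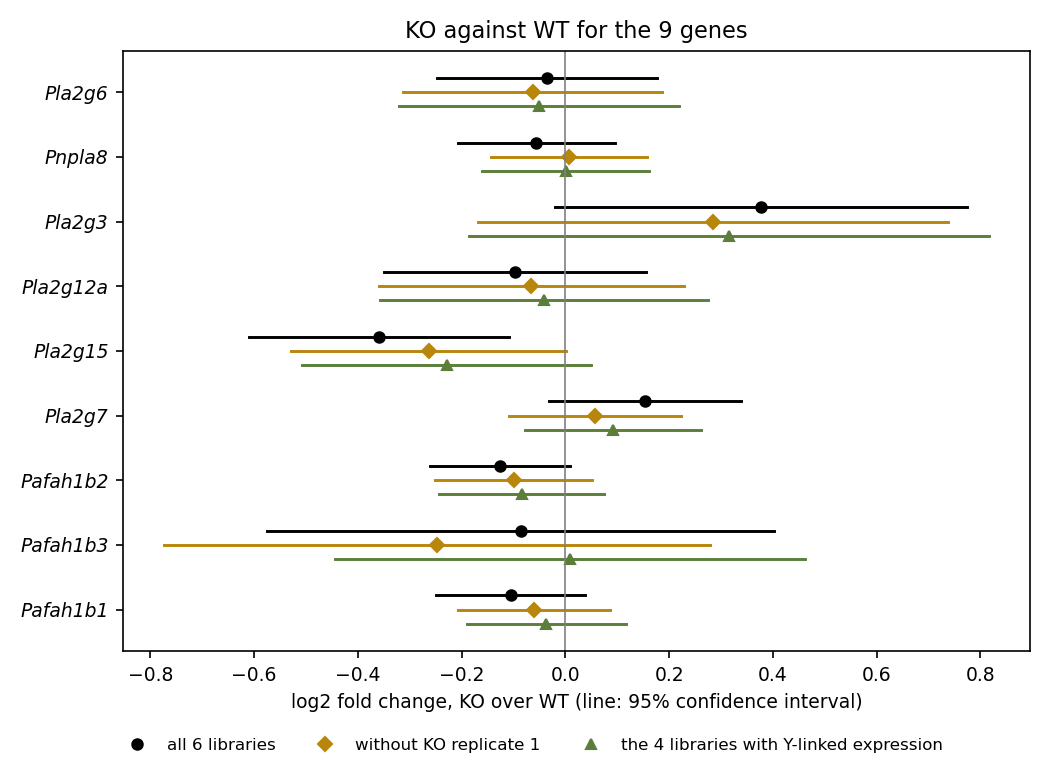
log2 fold change of KO over WT (horizontal axis) with its 95% confidence interval for each of the 9 genes, from all 6 libraries, without KO replicate 1 and within the 4 libraries with Y-linked expression. With all libraries only the interval of Pla2g15 (-0.61 to -0.11) leaves out 0, and in the other fits each interval holds 0.

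Some of the 9 genes followed each other across libraries. Pla2g15 and Pafah1b2 placed the 6 libraries in the same order, from KO replicate 1 through KO replicates 3 and 2 to WT replicates 3, 2 and 1. Pafah1b1 gave that order too but for WT replicate 3 and KO replicate 2, which changed places. Summed excitatory neuron markers followed a like order at its ends: 1566 CPM in KO replicate 1, 1891 CPM in WT replicate 3, 1962 and 1975 CPM in KO replicates 2 and 3, and 2183 CPM in WT replicates 1 and 2. All 6 of these markers, none of them at 0, had a log2 fold change below 0, and their part in the levels of Pla2g15, Pafah1b2 and Pafah1b1 was not tested. KO replicate 1 was the lowest library for 4 of the 9 genes (Pnpla8, Pla2g15, Pafah1b1 and Pafah1b2) and the highest for 2 (Pla2g7 and Pla2g3). WT replicate 1 was the highest library for 4 (Pla2g15, Pafah1b1, Pafah1b2 and Pafah1b3) and the lowest for 0. Its summed meningeal fibroblast markers were at 94.4 CPM, against 38.3 to 69.9 CPM elsewhere. Gfap was at 329 CPM there, against 62.3 to 189 CPM elsewhere, while its summed astrocyte markers (5156 CPM) were below those of KO replicate 1 (5186 CPM). Astrocyte markers, all 7 above 0 in log2 fold change, summed to 4691 to 5186 CPM in KO against 4434 to 5156 CPM in WT, and the groups overlapped. The 8 striatal neuron markers also had log2 fold changes above 0, at 227 to 331 CPM in KO against 165 to 297 CPM in WT. All 7 oligodendrocyte markers were above 0 as well, with a median log2 fold change of 0.22, at 2226 to 2580 CPM in KO against 1730 to 2857 CPM in WT. The part of these lists in the levels of the 9 genes was not tested.

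**Figure D4:**
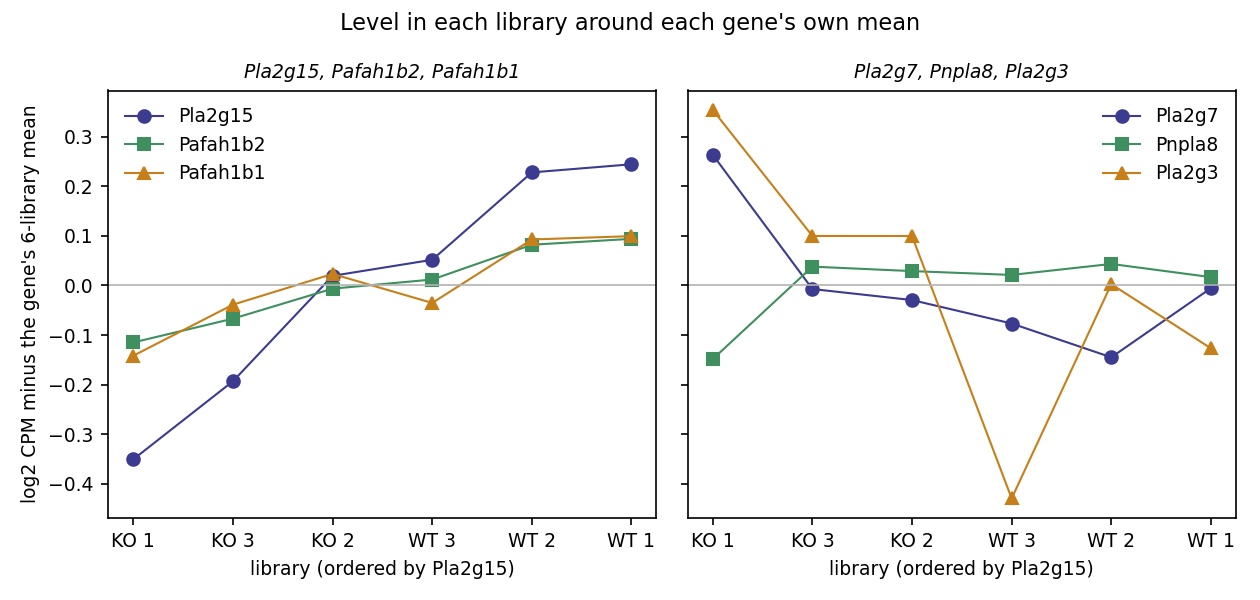
log2 CPM of 6 genes minus each gene's own mean over the 6 libraries (vertical axis), with libraries ordered by the level of Pla2g15 (horizontal axis). Pla2g15 and Pafah1b2 climb from KO replicate 1 to WT replicate 1, and Pafah1b1 does so but for a dip at WT replicate 3, while Pla2g7 and Pla2g3 are highest and Pnpla8 lowest in KO replicate 1.

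The start sites of the 3 genes that moved together are shown for their sequence. Each line gives the 100 bases before a RefSeq start site on GRCm38.p6, read 5′ to 3′ on the strand of the gene, and none of the stretches shown touches an exon annotated in GENCODE M21. Capitals mark any match, on either strand, to the GC box (GGGCGG), the CCAAT box (CCAAT), the TATA box (TATAAA) or the E-box (CACGTG).
Pla2g15, chr8:106150254-106150353, plus strand: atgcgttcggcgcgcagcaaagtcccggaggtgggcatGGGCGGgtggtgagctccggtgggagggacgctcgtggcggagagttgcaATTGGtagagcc
Pafah1b2, chr9:46012691-46012790, minus strand: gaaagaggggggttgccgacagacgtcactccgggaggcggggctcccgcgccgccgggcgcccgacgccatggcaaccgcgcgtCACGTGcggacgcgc
Pafah1b1, chr11:74723859-74723958, minus strand: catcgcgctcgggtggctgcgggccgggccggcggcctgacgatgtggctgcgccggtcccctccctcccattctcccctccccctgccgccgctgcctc
Over the full 250 bases before each start site, Pla2g15 held 1 GC box and 1 CCAAT box, Pafah1b2 held 1 E-box, and these letters were not in the window of Pafah1b1. The full window of Pafah1b2 touched an annotated exon of Sik3, and that of Pafah1b1 touched an exon of its own gene. Among 32817 mouse promoter windows of the same length, 32.7% held the GC box, 33.8% the CCAAT box, 12.4% the TATA box and 6.02% the E-box. The GC content of the windows was 58.8% for Pla2g15, 80.4% for Pafah1b2 and 73.2% for Pafah1b1. Pafah1b2 has 3 further RefSeq start sites, which are not shown, and their windows held 0, 2 and 1 GC boxes and none of the other motifs. Those windows lie downstream of the site shown, within chr9:45984387-45985644. A match of letters is a description only.

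For each of the 9 genes, the gene of the most similar pattern was sought among 12428 genes of mean log2 CPM 2 or more, by Pearson's r of log2 CPM over the 6 libraries. With 6 libraries and so many genes, high values arise readily, and all genes share the scaling of each library. The closest were Brix1 for Pla2g6 (r = 0.9901), Cwh43 for Pnpla8 (r = 0.997) and Kank3 for Pla2g7 (r = 0.999). For Pla2g12a it was Eif1ad (r = 0.998), for Pla2g15 Ola1 (r = 0.997) and for Pla2g3 Fam198a (r = 0.993). For the complex they were Epdr1 with Pafah1b1 (r = 0.996), Psmd13 with Pafah1b2 (r = 0.996) and Mrpl46 with Pafah1b3 (r = 0.992). The number of genes above r = 0.95 ran from 8 for Pla2g6 to 124 for Pafah1b1.

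The lists around the 9 genes were read in the same fit. In the 8 lists other than group IV, with 73 genes, 62 were tested and 0 passed the adjusted threshold. By unadjusted p, 7 of the 62 (11.3%) were under 0.05, 4 lower and 3 higher in KO, beside 7.82% of all genes. In the group IV list, counted apart because it holds Pla2g4e, 4 of 6 genes were tested and 0 passed the adjusted threshold. There Pla2g4c stood at 0.879, 1.17 and 0.547 CPM in KO against 0.392, 0.573 and 0.235 CPM in WT (log2 fold change 1.05, SE 0.52, adjusted p = 0.637 in limma-voom). Its groups overlapped at under 2 CPM. Pla2g4d and Pla2g4f, with 2 fragments or fewer in each library, were under the filter.

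Of the other secreted phospholipases A2, relatives of Pla2g12a and Pla2g3, few were detected in this tissue. Among the 11 genes, Pla2g1b, Pla2g2a, Pla2g10 and Pla2g12b had no fragment in any library, which allows up to 0.203 to 0.251 CPM in a library for a count of 0 (3 fragments, counting error only). Pla2g2c, Pla2g2e, Pla2g2f and Oc90 had at most 3 fragments in a library. Pla2g2d (log2 fold change 0.34, SE 0.54) and Proca1 (-0.12, SE 0.29) had the lowest p-values of the 3 tested, with adjusted p = 0.874 and 0.925 in limma-voom.

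Among the other patatin-like lipases, relatives of Pla2g6 and Pnpla8, 0 of 5 tested passed, and Pnpla5 had no fragment. Pnpla1 (log2 fold change -0.58, SE 0.51) and Pnpla7, a lysophospholipase (0.19, SE 0.18), had the lowest p-values. Of the 7 tested enzymes with other phospholipase A activity, Plaat1, which like PLA2G4E makes N-acylphosphatidylethanolamines but without calcium, was at 22.2, 24.0 and 26.2 CPM in KO against 25.4, 31.7 and 31.7 CPM in WT. Its groups overlapped, with a log2 fold change of -0.29 (SE 0.11, unadjusted p = 0.021, adjusted p = 0.635 in limma-voom). Abhd4, a hydrolase of N-acylphosphatidylethanolamines, was next (0.18, SE 0.11), and Plaat5 had at most 1 fragment in a library. For the phospholipase A2 receptor Pla2r1 and the annexin Anxa2 the values were -0.64 (SE 0.49) and -0.22 (SE 0.20), and Scgb1a1 had no fragment.

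Of the enzymes that use or remake the lysophospholipid product, every one was tested (9 acyltransferases and 11 hydrolases) and 0 passed the adjusted threshold, at levels that ranged down to 0.392 CPM (Gdpd3 in WT replicate 1). Mboat7, which puts arachidonic acid onto lysophosphatidylinositol, had 161, 169 and 171 CPM in KO against 201, 199 and 171 CPM in WT (log2 fold change -0.18, SE 0.07, unadjusted p = 0.028, adjusted p = 0.635 in limma-voom). WT replicate 3 fell among the KO values. Lpgat1 was next in that list (-0.12, SE 0.08). Gpcpd1, which splits glycerophosphocholine, had 125, 119 and 126 CPM in KO against 104, 104 and 113 CPM in WT, without overlap (0.20, SE 0.07, unadjusted p = 0.0104, adjusted p = 0.635 in limma-voom), and Gdpd1 was at -0.16 (SE 0.08). KO was higher without overlap in 6.72% of all genes. Other genes of the hydrolase list were separate too, Gdpd1 (lower in KO) among them.

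In the synthesis of ether lipids, from which platelet-activating factor derives, Far1 (0.15, SE 0.07, unadjusted p = 0.0445 in limma-voom) and Chpt1 (0.15, SE 0.07) had the lowest p-values of 7 genes tested, with adjusted p = 0.635 and 0.637. Ptafr, the receptor of platelet-activating factor, stood at 1.26 to 1.62 CPM in KO against 1.31 to 2.04 CPM in WT. Of 17 partners of LIS1 and dynein, Dcx (0.62, SE 0.22, unadjusted p = 0.0136 in limma-voom) and the dynein light intermediate chain Dync1li1 (-0.20, SE 0.07, unadjusted p = 0.0152) led, with adjusted p = 0.635. Dcx, a microtubule protein of young neurons, was at 137 CPM in KO replicate 1 and at 47.1 to 82.2 CPM in the other 5 libraries. Dync1li1 did not overlap, with 68.8 to 74.0 CPM in KO against 77.8 to 87.7 CPM in WT. KO was lower without overlap in 6.29% of all genes, and also in another gene of this list.

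**Figure D5:**
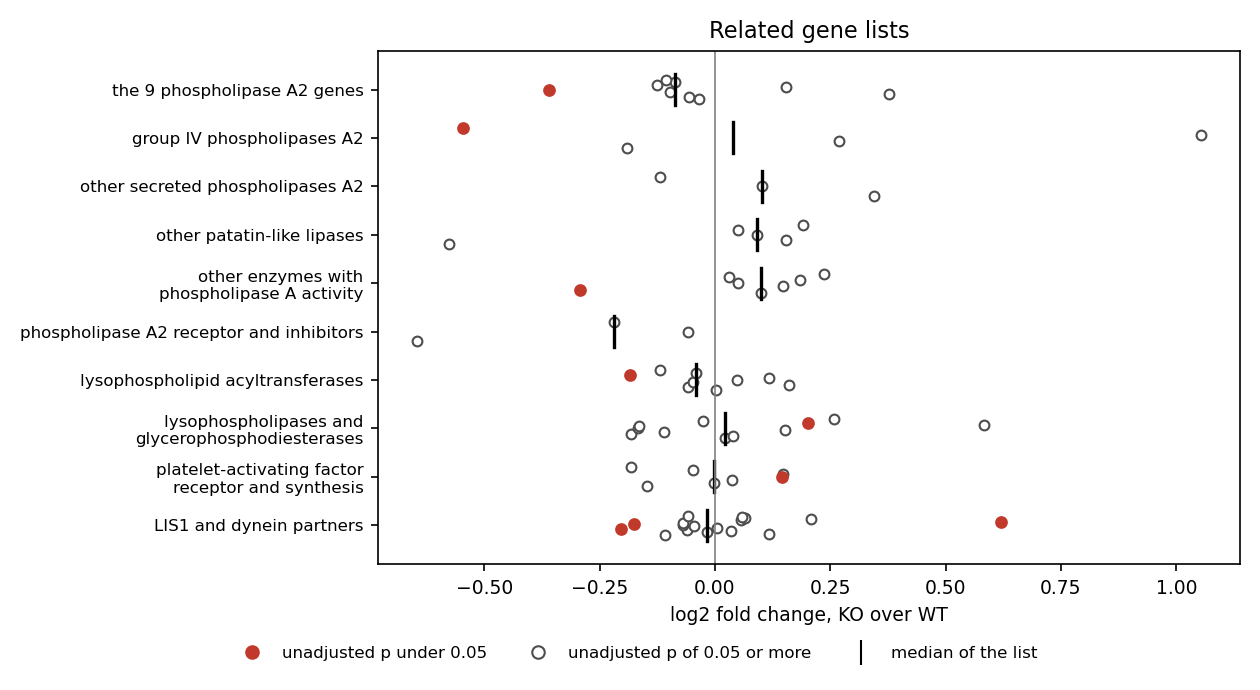
log2 fold change of KO over WT (horizontal axis) for each tested gene of the 9 phospholipase A2 genes and of 9 related lists (rows), with filled points at an unadjusted p under 0.05 and a black bar for each list's median. The median of the 9 genes is -0.09, and no gene shown passed the adjusted threshold.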

How the data were processed

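Polyadenylated RNA of mouse prefrontal cortex (3 KO, 3 WT) had been made into stranded libraries. The values deposited by the authors are raw counts of fragments per gene, 1 table per sample, not normalized or pooled. Per the submitters' processing notes and the file headers, FastQC 0.11.8, STAR 2.7.9a and featureCounts 1.6.0 were used, on GRCm39 with GENCODE M31, in paired, reverse-stranded mode over exons. An older build and gene annotation are named in the study's own methods. Fragments that mapped to several places or overlapped several genes were not counted, which can lower genes with near copies.

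Groups and replicate numbers come from the sample titles. Genes with at least 6 fragments in at least 1 library (19084) were scaled by TMM (edgeR 4.0.16) and compared by voom and limma 3.58.1 under R 4.3.3, two-sided, without covariates, with p-values adjusted by Benjamini-Hochberg across every tested gene. The study's methods name the filter, edgeR, voom and limma, and the remaining settings were chosen here. FPKM was CPM per exon kilobase. Library depth was 11792463 to 14594230 fragments, and intervals at 0 fragments cover counting error only. Alternatives were edgeR's quasi-likelihood test, DESeq2 1.42.0, other scalings, filters and weights, a replicate block, a Y-linked covariate, the Y-linked libraries alone and leaving out each library. On simulated counts of KO against WT (18539 genes tested, 200 changed), limma-voom recovered 96% of 2-fold and 100% of 4-fold changes, and 9.26% of its 216 calls were unchanged genes, above the nominal rate. Only changes of these sizes were simulated, and none in genes of low CPM. The 9 genes lay between 0.780-fold and 1.299-fold, sizes at which recovery was not tested.

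All 9 genes and Pla2g4e were named, with, in each related list, the 2 genes of lowest p-value and those without a fragment or under the filter, and the most similar gene for each member. Ptafr, named as the receptor of platelet-activating factor, was chosen after its values were seen. The members, the gene lists and the markers were chosen with earlier results of these data known. Symbols and coding sequences come from GENCODE M21 (GRCm38) and promoters from RefSeq (GRCm38.p6), which held start sites for 7 of the 9 genes. Plaat1, Plaat3 and Plaat5 are listed there under older symbols.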

Additional observations from a re-analysis of the deposited data

How the results depend on the processing

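Under 17 alternatives the 9 genes gave 153 log2 fold changes, of which 147 kept the direction and the side of the adjusted threshold, and no member passed it (lowest adjusted p 0.286, Pla2g15). The other 6 reversed. Within the libraries with Y-linked expression Pnpla8 was at 0.00093 and Pafah1b3 at 0.0099. When a library was left out, Pla2g6 ranged from -0.088 to 0.0023 (without WT replicate 3), Pnpla8 from -0.089 to 0.0065 (without KO replicate 1) and Pafah1b3 from -0.25 to 0.17, above 0 without KO replicate 2 (0.026) or WT replicate 1 (0.17). The cause was not tested. Genes past the adjusted threshold, 0 in the analysis as reported, numbered 1 in DESeq2, 22 with the Y-linked covariate, 3 within the libraries with Y-linked expression (fewer samples) and 0 to 1 when a library was left out (1 without WT replicate 2). Unadjusted p-values under 0.05, 1492 as reported, numbered 902 in DESeq2, 696 within the libraries with Y-linked expression and 782 to 2239 when a library was left out, the lowest being without WT replicate 2, the next 830 without KO replicate 1 and the highest without WT replicate 3. Samples with the same replicate number correlated in their deviations at 0.27, 0.06 and -0.02, so the numbers were not taken as pairs, although the replicate 1 libraries share Xist expression. With the replicate block 0 genes passed, 1693 had an unadjusted p under 0.05 and Pla2g15 had a log2 fold change of -0.35. Among the related genes, 0 passed under each alternative, and the 7 with an unadjusted p under 0.05 became 1 without WT replicate 2 and 12 without WT replicate 3. The members with the fewest fragments were Pla2g3 and Pafah1b3, at 51 to 132 a library, and intervals of 3 against 3 libraries leave room for changes of the size shown.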
